A study of Arabidopsis thaliana with 6 samples.

Results

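Root hair extensins are the structural proteins of the wall that surrounds a growing root hair. The 10 genes described here were chosen by gene ID, as extensin and proline-rich genes associated with root hairs, out of the 18734 genes in the deposited count table, and all 10 were present. They are EXT6 (AT2G24980), EXT10 (AT5G06640), EXT12 (AT4G13390), EXT13 (AT5G35190), HRGP1 (AT3G54590), RHS13 (AT4G02270) and 4 genes known only by their IDs, AT3G54580, AT4G08400, AT4G08410 and AT5G06630. Poly(A) RNA was sequenced from the terminal 0.5 cm of primary roots of Arabidopsis thaliana seedlings, 5 days after planting, on an Illumina HiSeq instrument. The groups were ore15-2, a mutant of ORE15 in the Columbia background, and wild-type Col, with 3 libraries each. Both were grown on vertical plates of Murashige and Skoog medium with sucrose under continuous light, and no hormone treatment is listed for any library. The labels give 2 seedlings per genotype for the RNA although 3 libraries per genotype are listed. The sources do not state separate plants or cultures behind the libraries. The p-values therefore measure only the spread between these libraries, which may be technical.

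An extensin is a hydroxyproline-rich glycoprotein built largely from repeats in which a serine is followed by a run of prolines. In the secretory pathway prolyl 4-hydroxylases turn the prolines into hydroxyproline, and arabinosyltransferases then add short sugar chains. Once in the wall, tyrosines of neighbouring molecules are joined by peroxidases into a network, and root hairs of Arabidopsis plants that lack single extensins or these modifying enzymes are short.

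The coding sequences showed what the genes share. All except RHS13 encoded a serine followed by at least 4 prolines many times over, from 14 times in EXT13 to 68 times in AT3G54580. Proline codons made up 32.0% of all codons in EXT13 and 38.4% in AT3G54580, with the other 7 repeat genes between these values, while tyrosine codons made up 16.8% to 21.8%. RHS13 had no such run, and 6.06% of its codons were for proline. The reference describes RHS13 as a Pollen Ole e 1 allergen and extensin family protein, so the label of proline-rich repeats was met by 9 of the 10 genes. The 4 stretches of 90 bases shown next start at the first repeat with at least 4 prolines, and capitals mark each serine codon with its 4 proline codons. They show the repeat itself, and a stretch that 2 neighbouring genes on chromosome 4 have in common.

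AT3G54580, coding bases 226 to 315: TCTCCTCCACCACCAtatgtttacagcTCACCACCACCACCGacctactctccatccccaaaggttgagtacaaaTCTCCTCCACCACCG
EXT13, coding bases 259 to 348: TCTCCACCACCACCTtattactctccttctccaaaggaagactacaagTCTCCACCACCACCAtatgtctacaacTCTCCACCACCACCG
AT4G08400, coding bases 271 to 360: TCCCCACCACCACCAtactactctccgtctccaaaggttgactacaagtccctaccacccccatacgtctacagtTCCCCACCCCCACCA
AT4G08410, coding bases 325 to 414: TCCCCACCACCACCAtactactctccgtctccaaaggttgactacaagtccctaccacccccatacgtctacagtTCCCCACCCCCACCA

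The last 2 stretches differed at 0 of 90 bases. Between the repeats lie tyrosine codons (tat and tac), the residues that peroxidases join in the wall. Of all windows of 50 bases in the spliced transcript, 56.1% in AT4G08400 and 44.6% in AT4G08410 also occurred elsewhere in the genome, against at most 4.44% in each of the other 8 genes. Reads of AT4G08400 and AT4G08410 may therefore have been exchanged or dropped in the counting, and their separate values are uncertain. With repeats inside the same gene included, 40.9% of windows in EXT6, 32.1% in AT5G06630, 30.1% in AT3G54580 and 20.25% in HRGP1 occurred more than once. In EXT10, EXT12, EXT13 and RHS13 it was at most 5.46%. How reads from repeated stretches were counted is not given, so levels of the genes with many such windows are uncertain as well. EXT10 overlaps AT5G06645, a gene on the opposite strand that is not in the tables used here, along 692 bases. Whether the counting used strand is not stated for these tables, and the reads of EXT10 and AT5G06645 may be mixed.

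The genes lie on chromosomes 2 to 5 and none lies on chromosome 1. In the TAIR10.1 reference AT5G06630 (chr5:2036312-2037855) and EXT10 (chr5:2039598-2041928) stand 1742 bases apart on the minus strand, with no protein-coding gene between them. AT3G54580 (chr3:20200573-20203919, minus strand) and HRGP1 (chr3:20206128-20208783, plus strand) point away from each other and are separated by 2208 bases. AT4G08400 (chr4:5323606-5325374) and AT4G08410 (chr4:5338819-5341209) lie 13444 bases apart on the minus strand with 1 protein-coding gene between them. EXT6 (chr2:10622396-10624309, plus strand), EXT12 (chr4:7783791-7785366, plus strand), EXT13 (chr5:13434151-13435424, plus strand) and RHS13 (chr4:992111-993039, minus strand) stand apart from the others. Every coding sequence was a single exon except that of RHS13, which had 2.

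The promoters of most of the repeat extensins carried a common stretch. In 7 of the 10 genes the letters GCACGT were followed, on the strand of the gene, by ACACGAA after a spacer of 25 bases, or 23 bases in EXT13. These letters were picked after the promoters of the 10 genes had been read. The stretches of 65 bases shown next start 10 bases before the first capital. Capitals mark GCACGT and ACACGAA, or in RHS13 the root hair element (RHE), a known promoter element of hair-specific genes. All are from TAIR10.1, on the strand of the gene.

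EXT6, chr2:10622291-10622355, plus strand: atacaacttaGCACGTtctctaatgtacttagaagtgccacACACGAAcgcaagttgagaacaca
AT5G06630, chr5:2037896-2037960, minus strand: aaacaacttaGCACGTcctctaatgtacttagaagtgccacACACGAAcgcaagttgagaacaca
EXT10, chr5:2041974-2042038, minus strand: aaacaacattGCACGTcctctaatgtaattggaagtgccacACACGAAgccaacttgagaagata
AT4G08400, chr4:5325431-5325495, minus strand: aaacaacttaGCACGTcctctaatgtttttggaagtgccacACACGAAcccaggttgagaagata
AT4G08410, chr4:5341245-5341309, minus strand: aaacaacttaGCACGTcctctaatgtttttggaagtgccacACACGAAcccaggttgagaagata
EXT12, chr4:7783676-7783740, plus strand: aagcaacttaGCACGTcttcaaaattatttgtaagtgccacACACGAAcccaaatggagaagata
EXT13, chr5:13433998-13434062, plus strand: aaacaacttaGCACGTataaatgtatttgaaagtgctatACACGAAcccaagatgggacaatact
AT3G54580, chr3:20203951-20204015, minus strand: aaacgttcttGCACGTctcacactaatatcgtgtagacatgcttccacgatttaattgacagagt
HRGP1, chr3:20206006-20206070, plus strand: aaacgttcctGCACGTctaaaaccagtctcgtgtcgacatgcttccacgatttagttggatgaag
RHS13, chr4:993195-993259, minus strand: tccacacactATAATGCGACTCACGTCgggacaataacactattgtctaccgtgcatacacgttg

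Both strands of the window from 250 bases before to 50 bases after the start of 27443 protein-coding genes were searched. GCACGT was in 4.18% of these promoters and in 9 of the 10 extensin promoters, the exception being RHS13. ACACGAA was in 3.63% of promoters and in 7 of the 10. The pair, within 50 bases and in this order, was in 11 promoters (0.0401%), and 7 of the 11 were these extensins. A longer run of 16 bases, aagtgccacacacgaa, which ends in the second element, was shared by 6 of the 7 and by no other promoter searched. RHE was in 0.867% of promoters and in RHS13 alone among the 10. The palindrome CACGTG was in 7.68% of promoters and in 0 of the 10. The windows of EXT6 and AT5G06630, which lie on different chromosomes, differed at 2 of 65 bases, and those of AT4G08400 and AT4G08410 at 0. Whole promoter windows of 300 bases were 64.0% to 93.0% identical among the 7 genes, whereas AT3G54580 and HRGP1 were 51.7% to 58.7% identical to the 7, and RHS13 was 52.7% to 57.3% identical to the other 9. The 7 promoters are alike over much of their length, so the shared stretch describes related promoters, and no binding was measured here.

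**Figure D1:**
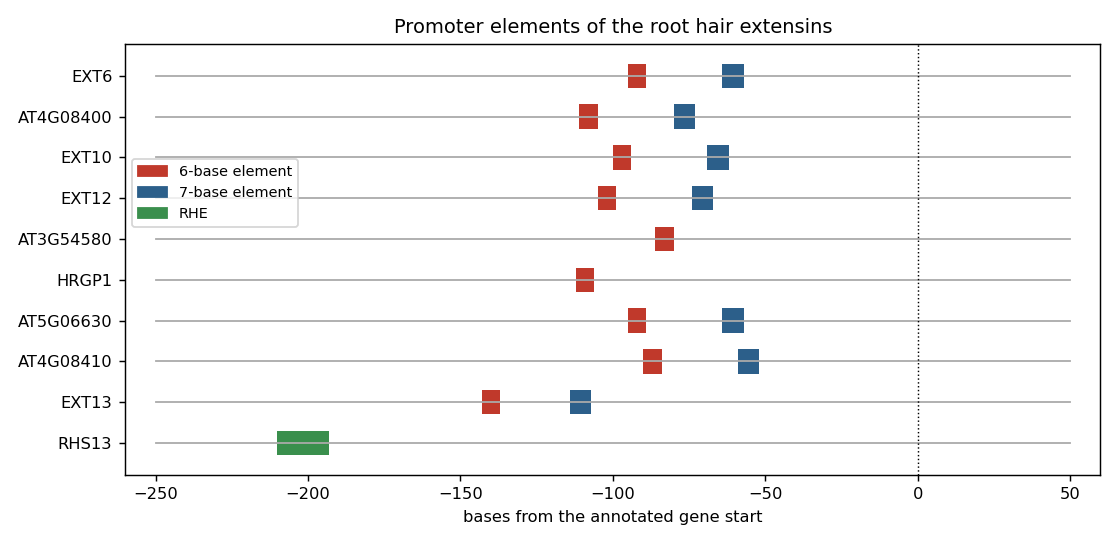
Position of promoter elements in the window from 250 bases before to 50 bases after the annotated start (dotted line) of each extensin, in bases. The first (GCACGT, red) and second (ACACGAA, blue) element stand side by side in 7 genes, AT3G54580 and HRGP1 hold the first alone, and RHS13 holds RHE (green).

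Among the other genes whose promoters held the pair, 3 were tested. AT5G13500, annotated as a Hyp O-arabinosyltransferase-like protein, was higher in ore15-2, with a log2 fold change of 0.38 (SE 0.09) and an edgeR adjusted p of 0.0354. Its level was 68.8, 79.5 and 74.1 CPM in ore15-2 replicates 1 to 3, against 58.4, 57.4 and 54.8 CPM in Col replicates 1 to 3, without overlap. An enzyme of this kind adds the first arabinose to hydroxyproline, the substrate that extensin repeats supply. SPDS1 (log2 fold change 0.11, adjusted p = 0.60) and AT3G07030 (0.12, adjusted p = 0.53) did not pass the same edgeR test, and AT5G40040 was not tested. AT5G13500 did not pass with upper-quartile scaling (adjusted p = 0.0539), with a replicate block (0.0740) or on log2(RPKM + 1) with limma (0.319). These 4 genes are named because their promoters hold the pair.

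The libraries differed before any extensin was considered. Total counts were 6706712, 6396903 and 16503138 in ore15-2 replicates 1 to 3 and between 17433440 and 20333352 in the Col libraries. Mitochondrial transcripts took 2.91% and 3.20% of the counts in ore15-2 replicates 1 and 2, against 0.328% in ore15-2 replicate 3 and 0.183% to 0.250% in the Col libraries. ORE15 itself, taken here as AT1G31040 from background knowledge since neither the labels nor the reference pair them, had 0, 0 and 1 counts in ore15-2, against 13, 12 and 8 counts in Col, which is too few to enter the test. The label "Root Meristem Stem cell" describes the libraries in part. Markers of the stem cell niche summed to 44.2 to 65.0 CPM in ore15-2 and 52.9 to 56.6 CPM in Col and dividing cell markers to 142 to 176 CPM in ore15-2 and 160 to 165 CPM in Col. Markers of hair cells, endodermis, xylem and phloem were all above 0 as well, so differentiated cells were in every library.

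All 10 extensins were higher in ore15-2 roots. Counts were compared with edgeR's quasi-likelihood F-test over 18726 genes, with p adjusted by the Benjamini-Hochberg method and a threshold of 0.05, and all 10 passed, each by at least 2-fold. In the same test 6.47% of all genes were higher, 2.66% were higher by at least 2-fold, and 3.43% were lower. The increase was between 2.15-fold in AT4G08400 and 3.45-fold in AT5G06630, and the median log2 fold change was 1.43, beside a median near 0 (-0.00049) over all genes tested. In each of the 10, the lowest ore15-2 library lay above the highest Col library, by 1.46 times in HRGP1 to 2.39 times in AT5G06630. Such a complete separation upward occurred in 18.2% of all genes. Since the roots were sequenced in bulk, more cells of a type and more RNA per cell cannot be told apart.

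CPM is the count scaled to library size by the TMM method, and is used to compare 1 gene between libraries. AT3G54580, the most abundant of the 10, was at 1070, 1664 and 776 CPM in ore15-2 replicates 1 to 3, against 427, 472 and 509 CPM in Col replicates 1 to 3. Its log2 fold change was 1.32 (SE 0.28, adjusted p = 0.0193 by edgeR). The ore15-2 libraries spread widely while the Col libraries stayed close together. Its divergent neighbour HRGP1, a hydroxyproline-rich glycoprotein, was at 453, 706 and 326 CPM in ore15-2 and at 178, 218 and 223 CPM in Col. HRGP1 had a log2 fold change of 1.26 (SE 0.26, adjusted p = 0.0168 by edgeR). Replicate 2 was the highest and replicate 3 the lowest ore15-2 library for both, and neither gene overlapped between genotypes.

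The tandem genes on chromosome 5 gave the largest and the third largest change of the family. AT5G06630 was at 105, 195 and 105 CPM in ore15-2, against 31.6, 41.4 and 44.0 CPM in Col, a log2 fold change of 1.79 (SE 0.24, adjusted p = 0.00228 by edgeR). Replicates 1 and 3 of ore15-2 were level here, and both stood well above Col. EXT10 was at 134, 299 and 143 CPM in ore15-2, against 46.4, 60.5 and 71.6 CPM in Col, a log2 fold change of 1.68 (SE 0.30, adjusted p = 0.00824 by edgeR). EXT6, whose promoter resembles that of AT5G06630, was at 156, 307 and 169 CPM in ore15-2 and at 51.7, 64.7 and 77.3 CPM in Col. Its log2 fold change was 1.70 (SE 0.26, adjusted p = 0.00386 by edgeR). In EXT10 and EXT6 alike, replicate 2 of ore15-2 stood apart upward and replicates 1 and 3 lay close together, clear of Col.

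The pair on chromosome 4 that shares long stretches had the smallest and a middling change. AT4G08400 was at 102, 190 and 103 CPM in ore15-2, against 51.3, 64.2 and 67.3 CPM in Col, a log2 fold change of 1.11 (SE 0.23, adjusted p = 0.0182 by edgeR). AT4G08410 was at 140, 251 and 145 CPM in ore15-2, against 57.2, 75.2 and 80.1 CPM in Col, a log2 fold change of 1.33 (SE 0.23, adjusted p = 0.00709 by edgeR). The log2 ratio of AT4G08400 to AT4G08410 within a library, which no scaling can move, was -0.45 ± 0.05 in ore15-2 and -0.21 ± 0.05 in Col (SD, n = 3 each). These ratios of counts did not overlap between genotypes and were lower in ore15-2. Per length, AT4G08400 averaged 78.6 RPKM in ore15-2 and 43.4 RPKM in Col, beside 77.5 RPKM in ore15-2 and 36.6 RPKM in Col for AT4G08410. The smallest two-sided p that an exact permutation test of 3 against 3 libraries can give is 0.10, so this difference is given without a test. The ratios of AT5G06630 to EXT10 (-0.47 ± 0.13 in ore15-2 and -0.60 ± 0.09 in Col) and of AT3G54580 to HRGP1 (1.24 ± 0.01 in ore15-2 and 1.19 ± 0.07 in Col) overlapped between genotypes.

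EXT12, EXT13 and RHS13 lay in the middle of the range. EXT12 was at 133, 261 and 147 CPM in ore15-2, against 54.9, 67.9 and 77.5 CPM in Col, a log2 fold change of 1.43 (SE 0.25, adjusted p = 0.00714 by edgeR). EXT13, the repeat extensin with the fewest repeats, was at 221, 389 and 180 CPM in ore15-2, against 77.2, 98.9 and 111 CPM in Col, a log2 fold change of 1.46 (SE 0.27, adjusted p = 0.0103 by edgeR). RHS13 was at 147, 300 and 142 CPM in ore15-2, against 63.1, 74.0 and 81.1 CPM in Col, a log2 fold change of 1.43 (SE 0.27, adjusted p = 0.0111 by edgeR). RHS13 lacks the repeats and the promoter pair, and its change stood within the range of the repeat extensins. None of the 3 genes overlapped between genotypes.

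**Figure D2:**
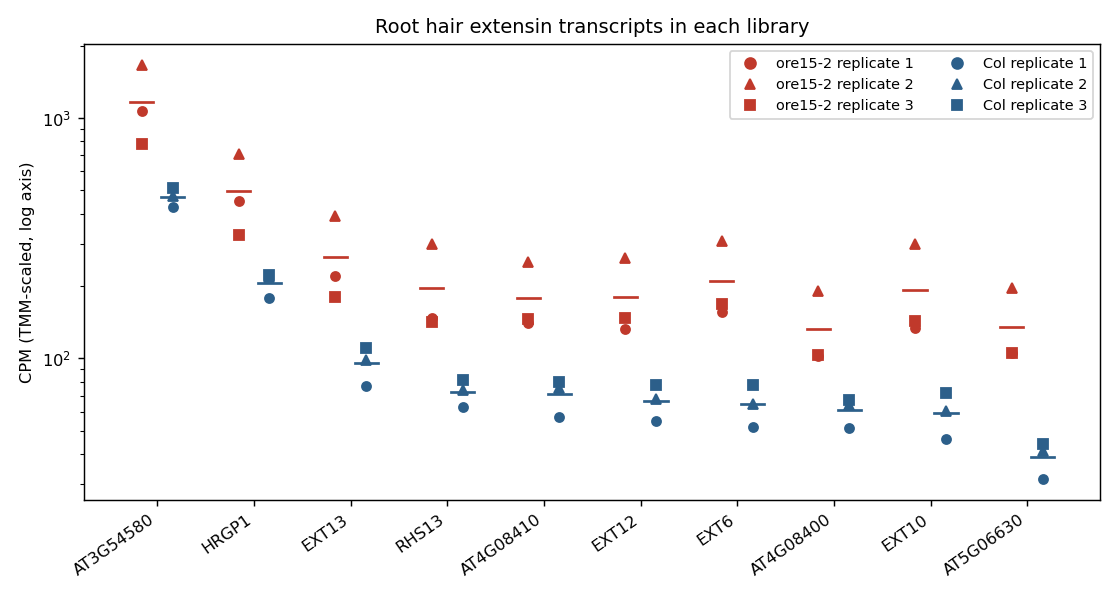
Level of each extensin in each library, in CPM on a log axis, with ore15-2 in red to the left of Col in blue and the group mean as a bar; symbols mark the replicate. Each gene separates by genotype, ore15-2 replicate 2 is the highest library throughout, and AT3G54580 averages 1170 ± 453 CPM in ore15-2 and 469 ± 41.1 CPM in Col (SD, n = 3 each).

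The libraries ordered the genes alike. Replicate 2 of ore15-2 was highest for all 10, and replicates 1 and 3 were each lowest of their group for 5. In Col, replicate 1 was lowest and replicate 3 highest for all 10. The median change of the 10 genes from the Col mean, in log2 CPM, was 1.17, 2.01 and 1.01 in ore15-2 replicates 1 to 3, against -0.28, 0.06 and 0.19 in Col replicates 1 to 3. Replicates 1 and 2 of ore15-2, the libraries with few counts and a raised mitochondrial share, had the larger medians. With ore15-2 replicate 3 as the only mutant library, all 10 genes were still higher, with a median of 1.01 and values between 0.67 in HRGP1 and 1.44 in AT5G06630. That fit assumes that the single library varies like the Col libraries. Without Col replicate 1, in which the genes were lowest, 2 of the 10 passed (EXT6 and AT5G06630), with a median of 1.29 and all 10 still positive. Without Col replicate 2, 5 passed (EXT6, EXT10, EXT12, AT5G06630 and AT4G08410). Without Col replicate 3 and without ore15-2 replicate 1 it was 7 and 8, and without ore15-2 replicate 2 or 3 all 10 did. The share of all genes called higher was 2.39%, 2.23% and 2.95% without Col replicates 1, 2 and 3. Without ore15-2 replicates 1, 2 and 3 that share was 3.52%, 7.3% and 18.7%, beside 6.47% with all libraries.

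**Figure D3:**
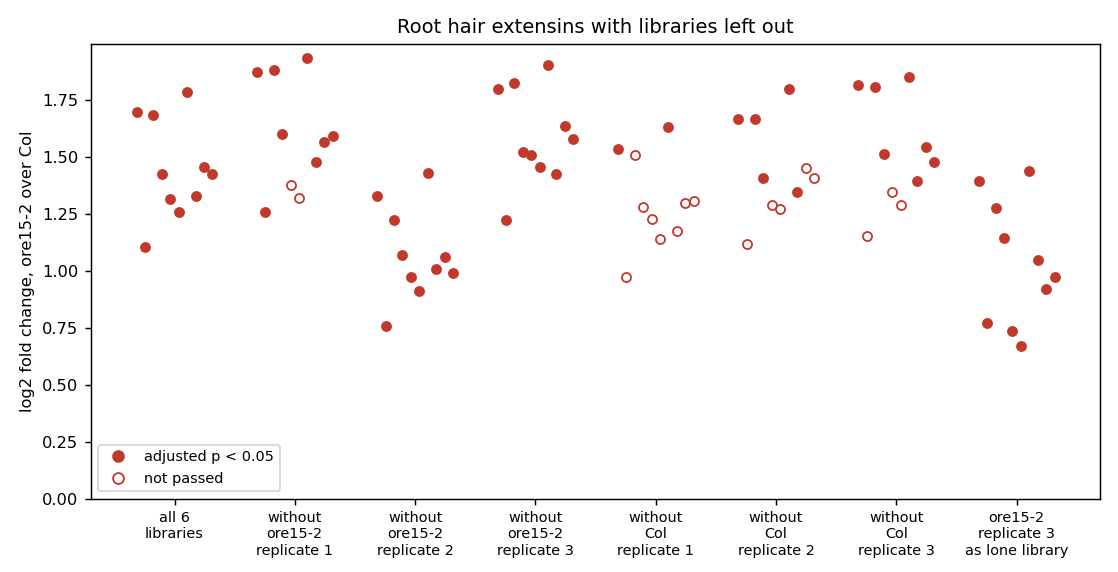
Log2 fold change (ore15-2 over Col) of the 10 extensins with all 6 libraries and with libraries left out; filled points passed the adjusted threshold and open points did not. All points are above 0, and 2 stay filled without Col replicate 1. The fit with ore15-2 replicate 3 as the lone mutant library assumes that this library varies like the Col libraries.

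Levels of different genes were compared per length, in RPKM (reads scaled to a length for each gene and to library size, as deposited). The counts and RPKM implied a length of 490 bases for RHS13 and 2810 bases for AT3G54580. These are near their coding lengths of 498 and 2874 bases. Whether reads outside the coding sequence were counted is not given, so ranks between genes, RHS13 included, are uncertain. Nor is it given how reads from repeated stretches, such as those within AT3G54580 and HRGP1, were counted. In ore15-2 the order began with AT3G54580 (374 ± 93.7 RPKM) and RHS13 (359 ± 114 RPKM), followed by EXT13 (243 ± 68.7 RPKM), HRGP1 (215 ± 55.0 RPKM) and EXT12 (128 ± 33.8 RPKM, SD, n = 3 each). In Col it was AT3G54580 (180 ± 14.2 RPKM), RHS13 (160 ± 18.5 RPKM), HRGP1 (108 ± 11.6 RPKM), EXT13 (106 ± 18.0 RPKM) and EXT12 (56.8 ± 9.14 RPKM, SD, n = 3 each). The other 5 averaged 77.5 to 115 RPKM in ore15-2 and 31.5 to 43.4 RPKM in Col. AT3G54580 and RHS13 changed places among the ore15-2 libraries (358, 475 and 290 RPKM for AT3G54580 beside 283, 491 and 304 RPKM for RHS13), while AT3G54580 was above RHS13 in each Col library (166, 180 and 195 RPKM beside 141, 162 and 178 RPKM). HRGP1 and EXT13 differed by less than the SD of either gene in both genotypes. Among the 5 lower genes AT4G08400 stood highest in Col (43.4 ± 5.60 RPKM) and EXT10 lowest (31.5 ± 6.45 RPKM), whereas in ore15-2 EXT6 stood highest (115 ± 30.9 RPKM), AT4G08400 next to last and AT4G08410 lowest (77.5 ± 17.2 RPKM, SD, n = 3 each). The ends of both orders differed by more than the SD of either gene, and each neighbour in these 5 by less than the larger SD of the pair.

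As a share of all RNA counted, the 10 genes took 0.246%, 0.359% and 0.237% of the counts in ore15-2 replicates 1 to 3, against 0.115%, 0.134% and 0.146% in Col replicates 1 to 3. AT3G54580 gave 34.7% to 40.2% of these counts in ore15-2 and 38.0% to 41.1% in Col, so the weight of the leading gene within the family overlapped between genotypes.

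Beside the extensins, 9 other marker genes of hair cells were read, chosen with earlier results of these data known. Of these, 7 were higher, 0 lower, and the median log2 fold change was 0.90. RHS15, a glycerol-3-phosphate permease, was at 17.9, 37.2 and 19.6 CPM in ore15-2, against 4.51, 6.04 and 7.21 CPM in Col (log2 fold change 2.04, SE 0.29, edgeR adjusted p = 0.0027). RHS18 (1.46), RHS12 (0.93) and AT1G12950, annotated as root hair specific 2 (0.90), also rose. RHS8 had a log2 fold change of 0.25 and did not pass (adjusted p = 0.211 by edgeR). RHD2, the NADPH oxidase of the hair tip, had a log2 fold change of 0.15 with an adjusted p of 0.383. RHS8 and RHD2 were named after their values were seen. With ore15-2 replicate 3 as the lone mutant library all 9 log2 fold changes were positive, with a median of 0.67. Without any 1 of the Col libraries 2 of the 9 passed as higher. On log2(RPKM + 1) limma called 2 of the 9, with RHS12 (adjusted p = 0.0515) and AT1G12950 (adjusted p = 0.0803) not among them.

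As sums over genes, the extensins stood higher relative to these markers in ore15-2. Abundant genes weigh most in such sums, and single markers differed. RHS15 (log2 fold change 2.04) rose more than any of the 10 extensins, while the median of the 9 markers was 0.90. The summed level of the 9 markers was 372, 605 and 415 CPM in ore15-2 replicates 1 to 3, against 249, 257 and 269 CPM in Col replicates 1 to 3. The summed level of the 10 extensins was 2661, 4563 and 2236 CPM in ore15-2, against 1039, 1237 and 1341 CPM in Col. The ratio of the summed counts, which does not depend on scaling, was 7.16, 7.54 and 5.38 in ore15-2 and 4.17, 4.82 and 4.98 in Col. The ratios did not overlap, and ore15-2 replicate 3, with 5.38, lay closest to Col. Non-hair epidermis markers had 0 of 4 higher or lower, with a median log2 fold change of -0.26, and summed to 34.0 to 39.7 CPM in ore15-2 and 37.8 to 41.9 CPM in Col. TTG2 (-0.51, adjusted p = 0.127) and MYB23 (-0.40, adjusted p = 0.147), which act in non-hair cells, had the smallest p among them in edgeR's test.

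**Figure D4:**
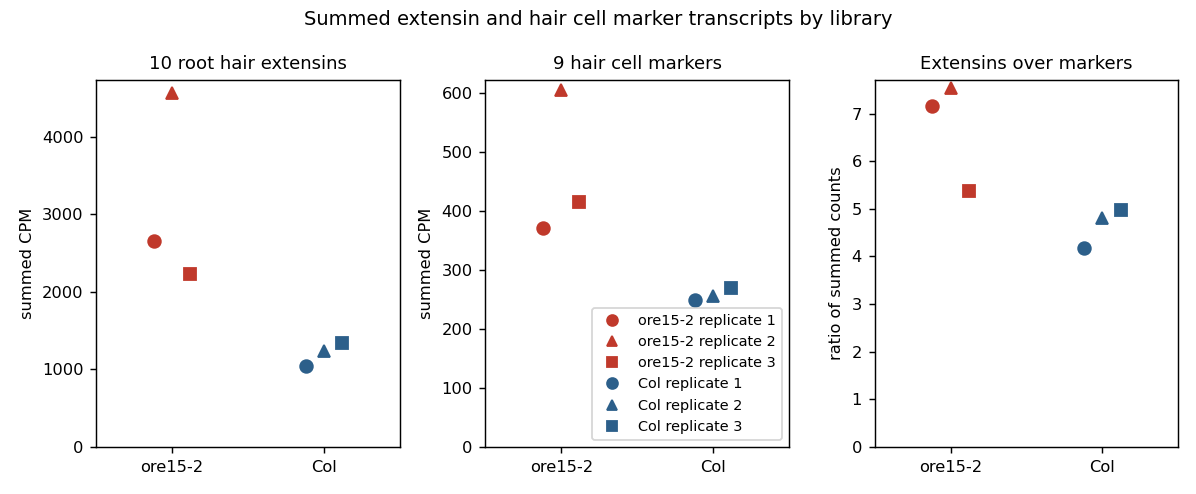
Summed CPM of the 10 extensins (left), summed CPM of the 9 hair cell markers (middle) and the ratio of their summed counts (right) in each library, ore15-2 left of Col, with axes from 0. The 3 ore15-2 libraries lie above the 3 Col libraries in each panel, with ratios of 5.38 to 7.54 in ore15-2 and 4.17 to 4.98 in Col.

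The lists for other cell types gave the following counts. Dividing cell markers had 0 of 6 and stem cell niche markers 0 of 4 past the threshold, in either direction, with medians of -0.01 and -0.04. At an unadjusted p under 0.05 edgeR had 0 of the 6, 1 of the 4, 1 of the 7 xylem markers and 2 of the 4 non-hair markers, and DESeq2 called 0 in each of these lists. HIK (-0.18, adjusted p = 0.407) and CYCB1;1 (0.12, adjusted p = 0.667), and WOX5 (-0.60, adjusted p = 0.129) and PLT2 (0.31, adjusted p = 0.228), had the smallest p of these lists. Phloem markers fell in 3 of 5, PP2-A1 by 1.49, SUC2 by 1.47 and SEOR1 by 0.68 on the log2 scale, and the 5 summed to 43.1 to 62.2 CPM in ore15-2 and 90.2 to 108 CPM in Col. Of 7 xylem markers none passed, with a median of -0.16 and the smallest p in VND7 (-0.55, adjusted p = 0.151) and XCP2 (-0.22, adjusted p = 0.211). Of 7 endodermis markers CASP4 rose (0.57), of 4 root cap markers FEZ rose (1.13), and of 4 leaf markers RBCS3B rose (2.86). FEZ did not pass without any 1 library other than ore15-2 replicate 3, CASP4 did not pass without Col replicate 1 or 2, and SEOR1 did not pass without ore15-2 replicate 1 or any 1 Col replicate. On log2(RPKM + 1) none of these 3 passed limma's test. The endodermis list summed to 523 to 734 CPM in ore15-2 and 424 to 541 CPM in Col, the root cap list to 36.6 to 48.1 CPM in ore15-2 and 27.4 to 34.0 CPM in Col, and the leaf list to 85.4 to 217 CPM in ore15-2 and 110 to 135 CPM in Col. None of these markers was at 0 in all libraries. The part of these cell types in the extensin result was not tested.

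Other extensins and relatives of the wall rose in part. Of 21 listed genes for other extensins, leucine-rich repeat extensins (LRX) and proline-rich proteins (PRP), 16 were tested, 8 rose and 0 fell, with a median of 0.64. PRP1 (1.56, SE 0.26, adjusted p = 0.00549), LRX1 (1.29, SE 0.22, adjusted p = 0.00726), LRX2 (1.04, SE 0.21, adjusted p = 0.0155) and PRP3 (1.24, SE 0.26, adjusted p = 0.0166) had the smallest p by edgeR. LRX1 and LRX2 are chimeras of a leucine-rich repeat and an extensin domain in the hair wall, and PRP1 and PRP3 are root hair proline-rich proteins. LRX1 was at 119, 196 and 103 CPM in ore15-2, against 48.1, 57.2 and 64.3 CPM in Col. PRP3 was at 199, 395 and 203 CPM in ore15-2, against 98.1, 115 and 124 CPM in Col. Neither overlapped between genotypes. Without Col replicates 1, 2 and 3 the number of the 16 that passed was 1, 2 and 3, without ore15-2 replicate 1 it was 4 and without ore15-2 replicate 3 it was 13. On log2(RPKM + 1) limma called 5 of the 16, all higher. EXT3, the abundant extensin that is needed for embryo cell walls, was named after its value was seen. It was at 3479, 4533 and 2616 CPM in ore15-2, against 2192, 2479 and 2459 CPM in Col, and did not pass (0.58, SE 0.33, edgeR adjusted p = 0.288).

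The enzymes that modify extensins were read from the same edgeR test, in which 6.47% of all genes were higher. Of 12 listed hydroxylation and glycosylation enzymes, 11 were tested, 1 rose (AT5G13500, described above) and 0 fell, with a median of 0.19. Of 7 listed peroxidases 6 were tested and 1 rose, with a median of 0.07. That one was RHS19, a root hair peroxidase, at 204, 381 and 215 CPM in ore15-2 and 83.4, 99.2 and 114 CPM in Col, a log2 fold change of 1.42 (SE 0.24, adjusted p = 0.00636 by edgeR). Its libraries ran in the order of the extensins, with ore15-2 replicate 2 highest and Col replicate 1 lowest. Without Col replicate 1 none of the 6 peroxidases passed (RHS19 adjusted p = 0.0511 by edgeR). Of the modifying enzymes, none passed without ore15-2 replicate 1 or any 1 Col replicate, and 3 passed without ore15-2 replicate 3. None passed in the alternative fits in which AT5G13500 lost its call.

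Of 13 listed root hair transcription factors, 12 were tested, 3 rose and 0 fell, with a median of 0.17. RSL4, a basic helix-loop-helix factor that drives hair elongation, was at 27.1, 24.5 and 35.5 CPM in ore15-2, against 13.2, 14.0 and 14.5 CPM in Col, a log2 fold change of 1.08 (SE 0.15, adjusted p = 0.00245 by edgeR). Replicate 2, the ore15-2 library with the most extensin transcripts, had the least RSL4, and replicate 3 the most. RSL4 lies on chromosome 1, where 80 of the 100 tested genes nearest to it were also higher, with a median log2 fold change of 0.96. Around each of the 10 extensins, 2 to 8 of the 100 nearest genes were higher and the median lay between -0.06 and -0.01. LRL3 (0.69, adjusted p = 0.0342) and LRL2 (0.59, adjusted p = 0.0229), basic helix-loop-helix factors of hair growth, rose in the same edgeR test. Without any 1 Col replicate RSL4 was the only one of the 12 that passed, and without ore15-2 replicate 1 it was 2 of the 12. On RPKM none of the 12 passed limma's test, and RSL4 had an adjusted p of 0.0681 to 0.0733 over the 3 such fits. RHD6 (0.04, adjusted p = 0.884), which starts hair development, RSL2 (0.45, adjusted p = 0.109), which acts beside RSL4, and GL2 (-0.12, adjusted p = 0.603), which represses hair fate, did not pass.

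**Figure D5:**
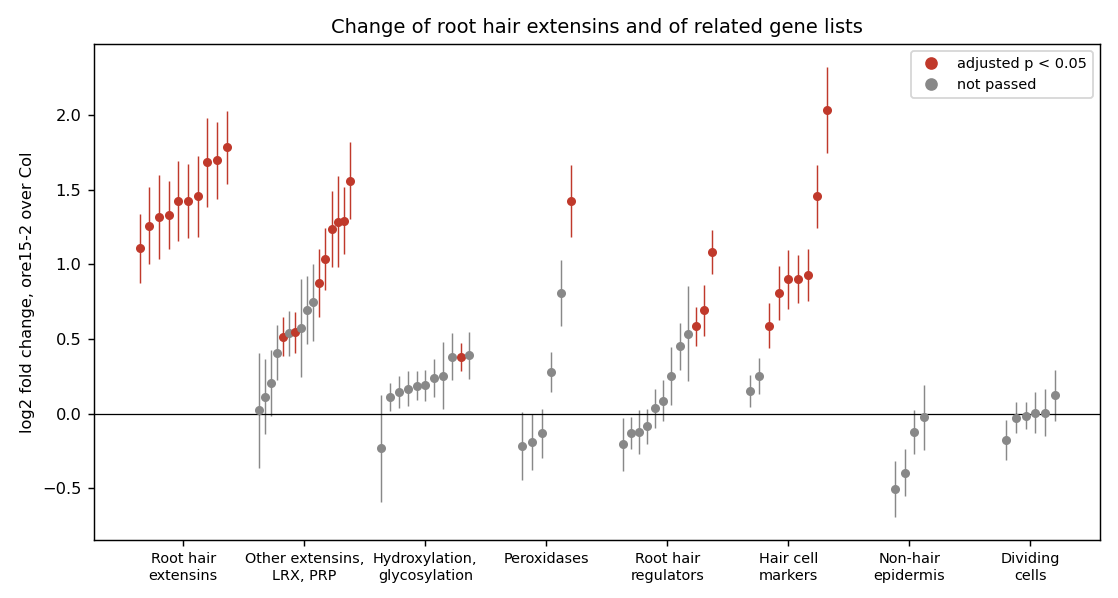
Log2 fold change (ore15-2 over Col) with its SE for every tested gene of the extensins and 7 other lists; red points passed the adjusted threshold, grey points did not, and genes are sorted by value within a list. All 10 extensins lie above 1.1, against 1 of 11 modifying enzymes past the threshold at 0.38 and 0 of 6 markers of dividing cells.

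The genes outside the family whose pattern was most like it were found by the root mean square distance between log2 CPM profiles, each centred over the 6 libraries, from the median profile of the 10 extensins. Among the 15392 other genes that averaged 5 CPM or more, RHS19 was nearest (0.05), followed by LRX1 (0.09), AT5G42510 (0.09), PRP1 (0.10), AGP3 (0.10) and AT5G57625 (0.11). AT5G42510 is annotated as a dirigent-like protein, AGP3 as an arabinogalactan protein and AT5G57625 as a protein of the CAP superfamily. The extensins themselves lay between 0.05 (RHS13) and 0.18 (AT5G06630) from the same profile, so the 6 named genes lay within the range of the extensins.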

How the data were processed

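The deposited values were read counts per gene and RPKM per gene. Per the submitters' processing notes, the authors made the deposited counts against TAIR10 with HTSeq after TopHat2, cutadapt and FastQC; how the deposited RPKM were scaled is not given in the sources used here. Read length, annotation release and strand setting are likewise not given. The main test was that of edgeR 4.0.16 under R 4.3.3 (quasi-likelihood F-test, TMM, filterByExpr, genotype as the only term) over 18726 genes, with Benjamini-Hochberg adjustment and a threshold of 0.05; code was tested on simulated data. SE is the absolute log2 fold change over the square root of F. CPM uses TMM-scaled library sizes; per-library log2 CPM has a prior count of 2. Alternatives used DESeq2 1.42.0 and limma 3.58.1. Positions and sequences are from RefSeq TAIR10.1, read with Python 3.11.15 and Biopython 1.88. The members, gene lists and tests were chosen with earlier results of these data known, so no list was tested as a set. Named genes were all 10 members, up to 4 passing genes of smallest p per list (or 2 where none passed), RSL4, RSL2, RHD6 and GL2, and the 6 most alike genes. Total counts per library ranged from 6396903 to 20333352, where 3 counts equal 0.596 and 0.136 CPM, for counting error only.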

Additional observations from a re-analysis of the deposited data

How the results depend on the processing

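All 10 extensins stayed higher in ore15-2 under each of the 18 alternatives, with log2 fold changes between 0.67 and 1.93, and all 10 passed the threshold except without ore15-2 replicate 1 or a Col replicate. Leaving out each library in turn gave 2 to 10 extensins past the threshold, with medians between 1.04 and 1.58, 634 to 6612 genes past it over all genes (1854 with all libraries) and 7 to 40 genes of the other lists (26 with all libraries). The highest adjusted p of any extensin under any alternative was 0.126, for AT3G54580 without Col replicate 1. With ore15-2 replicate 3 as the lone mutant library, 3109 genes passed, and KN (log2 fold change -0.35, against 0.01) and RBCS1A (-0.59, against 0.15) changed sign and passed. On log2(RPKM + 1), log2(RPKM + 0.1) and log2(RPKM + 1) with no filter, limma called 1110, 1037 and 1133 genes and 12 genes of the other lists each time. That scaling moved the median of all genes to -0.21 with a pseudocount of 1, beside an extensin median of 1.13. DESeq2 called 2518 genes in all and 10 extensins. The cause of these shifts was not tested. With the replicate number as a block, 10 extensins passed, with a median of 1.36, and 1641 genes in all. Same-numbered libraries of the genotypes deviated with correlations of 0.06, 0.08 and -0.20, so no pairing by number was seen. Deviations from the mean of 3 libraries cannot exclude such a pairing. Depth is lowest in ore15-2 replicates 1 and 2, and with 3 libraries a group the count of calls rests on single libraries. The alternatives for the other lists were chosen after seeing the data.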
